A study of Rattus norvegicus with 2 samples.

Results

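Nppa and Nppb, the genes of atrial and B-type natriuretic peptide, were followed in the left ventricle (LV) of Dahl salt-sensitive (DS) rats, which become hypertensive and develop heart failure on a high-salt diet. The genes were taken by their Ensembl IDs, ENSRNOG00000008176 for Nppa and ENSRNOG00000008141 for Nppb, and both were found, as 2 of the 20174 genes on a rat oligonucleotide chip with 1 spot per gene. The IDs were paired with the gene names outside the deposited files, which list IDs only. RNA of 3 male rats was mixed into 1 pool for each of 3 groups at the stage of heart failure: the control group NS (−), fed 0.3% NaCl, the heart failure (HF) group HS (−), fed 8% NaCl, and the treatment group HS (ch+), fed 8% NaCl and injected intraperitoneally with 0.25 mg/kg of chaetocin 2 times a week between the ages of 6 and 13 weeks. Chaetocin is a fungal compound that inhibits the histone H3 lysine 9 methyltransferase SU(VAR)3-9. All rats were of the DS strain. The HS (−) pool carried the red dye Cy5 on both of the 2 arrays; its partner, in the green dye Cy3, was the NS (−) pool on array 1 and the HS (ch+) pool on array 2. Each group was 1 pool and dyes were not swapped, so there were no replicates and no tests across samples, and differences between the rats of a group are not contained in any error given here. A normal-salt group with chaetocin was not among these pools.

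Natriuretic peptides are hormones that heart muscle cells release when the wall is stretched. They bind to a receptor that makes cyclic GMP, and they promote loss of salt and water and widen blood vessels. Nppa is expressed in the fetal ventricle, is largely restricted to the atria after birth and returns in the ventricle under overload, whereas Nppb is made in the ventricle and rises under load. For this reason both are used as markers of cardiac hypertrophy and heart failure. The comparison addressed here is how far each was raised in HS (−), and how far HS (ch+) stood from HS (−) and from NS (−).

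The genes lie next to each other on chromosome 5 in the RefSeq gene table of the GRCr8 assembly, Nppb before Nppa on the plus strand, with 0 other genes listed between them. As the pair shares this location and was measured side by side, the bases just before each gene are shown, taken from RefSeq on GRCr8 and written 5′ to 3′, with matches to motifs of cardiac promoters in capitals. The Nppa stretch is chr5:163711934-163712183 and the Nppb stretch chr5:163699758-163699954, both on the plus strand. The motifs were searched on both strands of the 250 bases before each start of transcription: GATA as TGATAA or AGATAA, M-CAT as CATTCC, NKE (the site of Nkx2-5) as AAGTG and TATA as TATAAA. For Nppb, 53 bases next to the start were searched but are not printed, since the gene record begins before that start. None of the matches overlapped another.

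Nppa: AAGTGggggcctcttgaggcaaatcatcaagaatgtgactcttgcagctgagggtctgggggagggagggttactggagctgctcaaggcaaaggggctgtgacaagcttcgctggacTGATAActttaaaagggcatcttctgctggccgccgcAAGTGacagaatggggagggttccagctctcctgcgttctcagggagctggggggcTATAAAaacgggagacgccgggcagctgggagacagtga
Nppb: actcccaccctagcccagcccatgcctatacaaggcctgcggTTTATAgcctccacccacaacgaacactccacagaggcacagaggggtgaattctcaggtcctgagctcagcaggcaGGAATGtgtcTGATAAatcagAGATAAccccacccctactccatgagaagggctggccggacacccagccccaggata

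Nppa had 1 match to GATA, at 132 to 127 bases before the start, 2 to NKE, at 250 to 246 and at 95 to 91 bases, and 1 to TATA, at 39 to 34 bases. Nppb had 2 matches to GATA, at 121 to 116 and at 110 to 105 bases, 1 to M-CAT on the minus strand, at 131 to 126 bases, and 1 to TATA on the minus strand, at 208 to 203 bases. GATA was thus matched before both genes, M-CAT before Nppb and NKE before Nppa. Among 33469 RefSeq promoters of this length, 16.9% held a GATA match and 2.59% held at least 2. A match was found in 12.1% of them for M-CAT, in 40.6% for NKE and in 12.9% for TATA. These matches describe letters in a window and not bound factors.

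**Figure D1:**
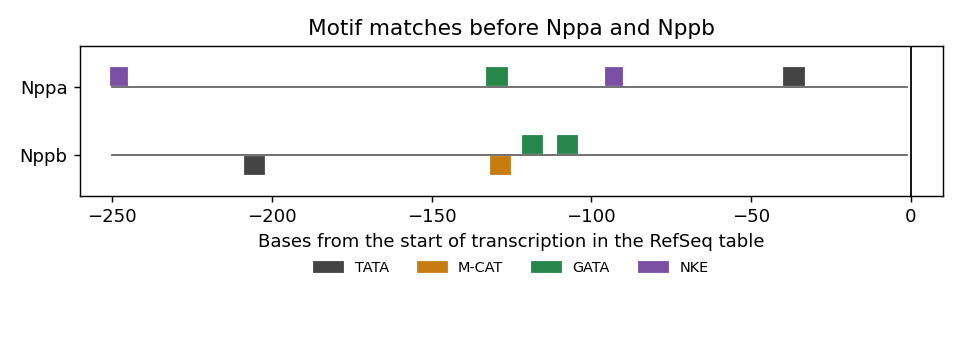
Motif matches in the 250 bases before Nppa and Nppb, by distance in bases from the start of transcription in the RefSeq table; boxes above a line are on the plus strand and boxes below it on the minus strand. A GATA match stands before both genes, at 132 to 127 bases for Nppa and at 121 to 116 and 110 to 105 bases for Nppb.

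Signals are given as the intensity of a spot above the mean of the blank spots of the same channel. Blank means were 24.8 and 48.1 in Cy5 and Cy3 on array 1, and 25.5 and 51.2 on array 2, and both genes stood far above them in all 4 channels. Nppa had a signal of 1382 in NS (−) and of 51979 in HS (−) on array 1. On array 2 its signal was 50194 in HS (−) and 14376 in HS (ch+). The Nppa signal was thus lowest in NS (−), highest in both readings of HS (−) and intermediate in HS (ch+). Nppb had a signal of 5510 in NS (−) and of 9005 in HS (−) on array 1. On array 2 its signal was 9298 in HS (−) and 9921 in HS (ch+). The Nppb signal was lowest in NS (−), while its HS (−) and HS (ch+) readings on array 2 were close to each other before the dyes were balanced. Signals of the 2 genes come from different probes and were not compared with each other.

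**Figure D2:**
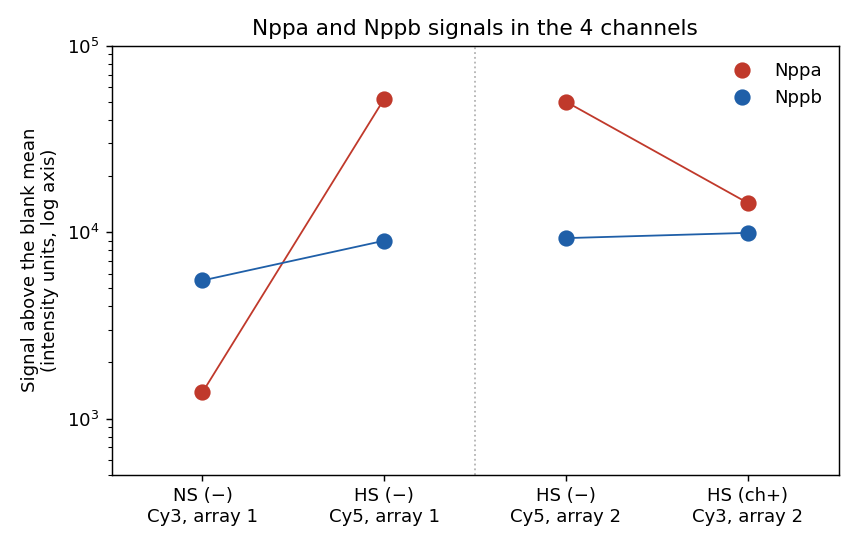
Signal above the blank mean (intensity units, log axis) of Nppa and Nppb in each of the 4 channels, 1 spot per point, with lines joining the pools hybridized to the same array; heights are not comparable between genes, and dyes are not yet balanced. Nppa has 1382 in NS (−), 51979 in HS (−) on array 1 and 14376 in HS (ch+), whereas Nppb lies between 5510 and 9921.

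The HS (−) pool was read in Cy5 on both arrays, and the difference between these readings gave the spread of a repeated reading in 1 dye. This spread contains no difference between Cy5 and Cy3, which enters both ratios against HS (−), and the plot by way of processing gives how far each ratio moved with the treatment of the signals. The reference set for all counts below was the 4127 genes that had both ratios and whose lower HS (−) signal reached 100. Over this set, the log2 difference of array 2 minus array 1 had a median of 0.15 and an SD of 0.16, which is a 1.12-fold spread. For the 149 of them whose lower HS (−) signal reached 5000, the SD was 0.15. The HS (−) reading of Nppa on array 2 was 0.966 of that on array 1, and that of Nppb was 1.03. Relative to the median of the 4127 genes, these differences were -0.20 and -0.10 on the log2 scale. The repeat of Nppb was thus inside 1 SD and that of Nppa slightly outside it. Both HS (−) readings of Nppa were recorded as whole numbers, as were 21 spots of that channel on array 1 and 22 on array 2, the dimmest of them at an intensity of 29246 and 29150, while all dimmer spots had decimals. The arrays were scanned at 3 gains that were brought to 1 scale, and how the brightest spots were treated is not given in the sources used here. The merged Nppa value in HS (−) reached 79.4% of the ceiling of 65535 on array 1 and 76.6% on array 2. Saturation in a single scan cannot be seen in merged values. The NS (−) and HS (ch+) readings of Nppa had decimals, so its ratios set differently recorded values against each other.

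**Figure D3:**
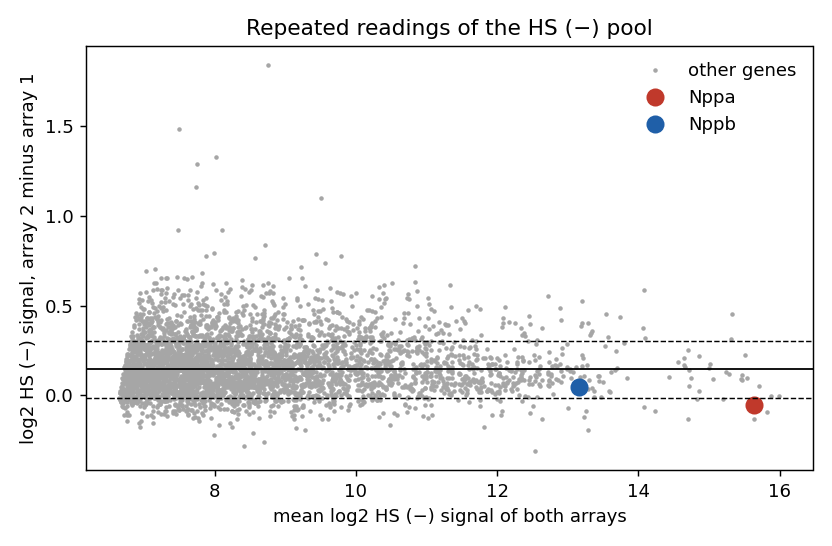
Difference between the log2 HS (−) signals of array 2 and array 1 against their mean, for 4127 genes; the solid line is the median, 0.15, and the dashed lines are 1 SD, 0.16, to either side. Nppb lies inside the band and Nppa just below it, among the brightest spots.

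In HS (−) against NS (−), Nppa was 42.3-fold higher and Nppb was 1.84-fold higher. On the log2 scale these ratios were 5.40 and 0.88, which is 33.8 and 5.49 times the SD between the HS (−) readings. The ratios are those of the blank-subtracted signals, centered on the median of each array. Their direction follows the labels, with HS (−) in Cy5. A ratio over 1, as in both genes, was found for 1925 of the 4127 genes, or 46.6%, and a ratio over 2 for 172, or 4.17%. Nppa was among the 172 and Nppb was not. Across the ways of processing the ratio of Nppb ran from 1.23, with the background value beside each spot subtracted, and 1.42, with normexp and loess, to 2.06, with loess alone, and 2.44, without background subtraction. The ratio of Nppa was exceeded by 4 of the 4127 genes, whose NS (−) signals were between 4.40 and 116, and in 3 of them under 100. Among the 3935 genes with a signal of at least 100 in all 4 channels, 1 gene had a higher ratio. The ratio of Nppb was exceeded by 215 of the 4127 genes, or 5.21%. This share was 21.7% of 4118 genes with the background value beside each spot subtracted and 11.5% with normexp and loess, so the place of Nppb among the genes depended on the background correction. The rise of Nppa on array 1 was larger than that of Nppb by 4.52 on the log2 scale.

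A ratio under 1 in HS (ch+) against HS (−) was found for 1904 of the 4127 genes, or 46.1%, and Nppa lay far below it. Nppa had a ratio of 0.221, which is 4.53-fold lower with chaetocin. Its log2 ratio of -2.18 was 13.6 times the SD of the repeated readings. A ratio under 0.714, the inverse of 1.4, was found for 190 of the 4127 genes, or 4.60%, and Nppa was one of them, with 8 genes at a lower ratio. Nppb had a ratio of 0.822, a log2 ratio of -0.28, which is 1.77 times the SD, and 13.4% of the genes had a lower ratio. The direction of this Nppb ratio was not settled across the ways of processing. With the dyes balanced and the background value beside the spot unused, it stayed under 1. It ran there from 0.656 without background subtraction to 0.971 with 50 added to each signal. Before centering, the HS (ch+) signal of Nppb exceeded its HS (−) signal by a ratio of 1.07. Centering moved all log2 ratios of array 2 together by 0.38, which placed Nppb below 1. With the background value recorded beside each spot subtracted, the ratio was 1.49. With normexp and loess, which use the same background value, it was 1.19, so these ratios are not independent. That value was 5650 for Nppb in Cy5 on array 2, where blank spots had a mean of 25.5. The 8 spots around Nppb had signals of at most 123 in that channel. For Nppa on array 1, the value was 450 beside a spot of 1430 in Cy3 and 17442 beside a spot of 52004 in Cy5. It was thus larger beside the brighter spot, and subtracting it took off a share of the spot. The reason for the gap to the blank and neighboring spots was not tested. The background value beside the Nppb spot on array 2 amounted to 60.6% of the spot in Cy5 and to 33.9% in Cy3, against medians of 44.4% and 39.5% for genes above 5000, so that its subtraction removed more of the HS (−) reading. For Nppa these shares were 33.9% and 37.6%. Both ratio limits together, over 2 in HS (−)/NS (−) and under 0.714 in HS (ch+)/HS (−), were met by 113 genes, or 2.74%, and Nppa was among them.

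**Figure D4:**
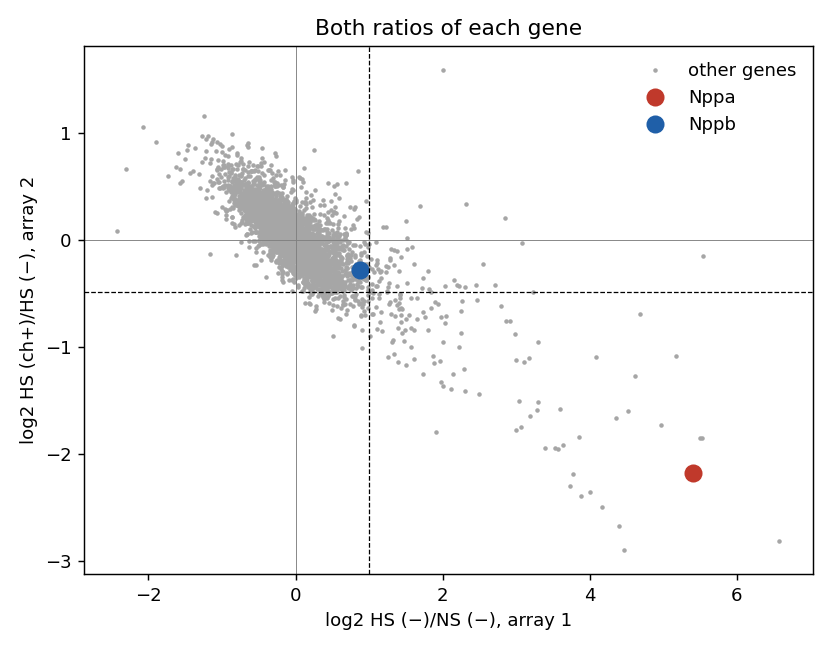
Log2 HS (ch+)/HS (−) on array 2 against log2 HS (−)/NS (−) on array 1 for 4127 genes, 1 point per gene, with dashed lines at ratios of 2 and 0.714. Nppa lies at 5.40 and -2.18, far from most genes, and Nppb lies at 0.88 and -0.28, at the edge of the main cloud; both axes contain the same HS (−) pool in Cy5.

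HS (ch+) was compared with NS (−) by multiplying both ratios, which sets 2 pools in Cy3 against each other through the shared HS (−) pool. Nppa was 9.32-fold higher in HS (ch+) than in NS (−), and Nppb was 1.51-fold higher. The log2 ratios were 3.22 and 0.59, or 20.2 and 3.72 times the SD of the repeated readings. A product over 2 was found for 107 of the 4127 genes, or 2.59%, and Nppa was among these and Nppb was not. On the log2 scale, the Nppa level of HS (ch+) thus stood 40.4% of the way from HS (−) to NS (−). On the linear scale this was 79.8%. HS (ch+) was a separate pool, so the share describes a position and not a change over time. The log2 share of Nppa was between 34.5% and 46.4% in 10 other ways of processing. Among the 113 genes past both ratio limits, the median log2 share was 47.8%, and 77 had a larger share than Nppa. The HS (−) pool in Cy5 enters both terms of each share. For Nppb the share was 32.2% on the log2 scale and has no settled sign. The 3 pools therefore stood in the order NS (−), HS (ch+), HS (−) for Nppa, with each step larger than the spread between the HS (−) readings, while for Nppb NS (−) was lowest and the order of HS (ch+) and HS (−) depended on the processing, with log2 ratios from -0.61 without background subtraction to 0.58 with the background value beside each spot subtracted.

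Nppb was also set beside genes with a like rise. The 111 other genes within 1 SD of its log2 HS (−)/NS (−) ratio had a median HS (ch+)/HS (−) ratio of 0.780, with quartiles of 0.720 and 0.899, and 66 of them, 59.5%, were lower than Nppb with chaetocin. In these blank-subtracted, centered ratios, the HS (ch+)/HS (−) ratio of Nppb was thus within the middle range of genes with its rise. The set was not drawn for other ways of processing. Counted from the lowest HS (ch+)/HS (−) ratio, Nppb was at rank 553 of 4127 genes. This rank was 3137 of 4118 with the background value beside each spot subtracted and 3066 of 4127 with normexp and loess. Since the HS (−) pool and its dye enter both ratios, a chance deviation of that pool moves the ratios in opposite directions.

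The genes nearest to each member in the plane of both log2 ratios were listed among the 4127 genes, over 3 pools. For Nppa, 0 genes lay within 1 SD, 0.16, and the nearest, ENSRNOG00000020165, was at a distance of 0.34. It had an HS (−)/NS (−) ratio of 45.5 and an HS (ch+)/HS (−) ratio of 0.277, but its NS (−) signal was 4.40. Among the 5 nearest, ENSRNOG00000031230 had an NS (−) signal of 3203, with ratios of 21.2 and 0.156, at a distance of 1.11. A large rise with a low HS (ch+)/HS (−) ratio was thus not particular to Nppa. For Nppb, 41 genes lay within 1 SD, and the nearest, ENSRNOG00000002643, was at a distance of 0.06 with ratios of 1.77 and 0.824. The files do not pair these IDs with names.

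Within their own blocks of spots both genes had nearly the same ratios. Nppa lay in block 4 and Nppb in block 8 of the 48 blocks of the array, and when ratios were centered within the block, Nppa had 41.6 and 0.224 and Nppb had 1.74 and 0.832 for HS (−)/NS (−) and HS (ch+)/HS (−). The 8 spots around Nppa had signals of at most 437 and 454 in the HS (−) channel of the arrays, and the 8 around Nppb of at most 113 and 123.

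As the pools are made of tissue, fewer cells of a type and less RNA per cell cannot be told apart. Of the 10 ventricular muscle markers listed, 3 had an ID, Myh6, Scn4b and Dhrs7c, and their signals in the 4 channels were between 209 and 65487, the highest being a saturated Myh6 spot in NS (−). All 3 were lower in HS (−) than in NS (−), but their IDs are known because the study picked them on these arrays for that direction. None of the 6 atrial, 5 fibroblast and 3 endothelial markers could be matched to an ID. Atrial muscle is rich in Nppa, and the part of any atrial tissue in the pools in these results was not tested. Of 4 macrophage and antigen-presenting markers, Cd74 had an ID, with signals between 1404 and 4916. Of 14 genes listed for the natriuretic peptide pathway, the 2 described here had an ID, so receptors and processing enzymes were not analysed here.

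**Figure D5:**
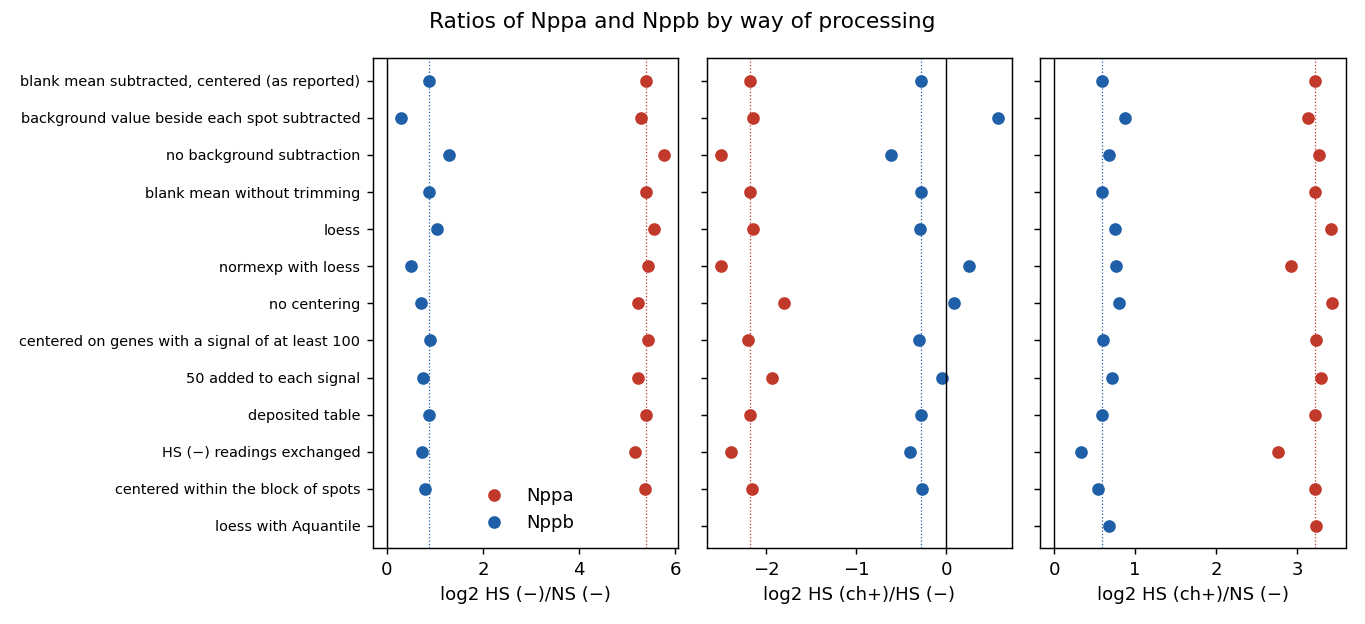
Log2 ratios of Nppa and Nppb in each of the 3 comparisons (columns) by way of processing (rows), 1 point per value; dotted lines mark the values reported above and black lines a ratio of 1. Nppa keeps its side of 1 in every row, between 35.9 and 54.6 for HS (−)/NS (−), whereas Nppb crosses 1 for HS (ch+)/HS (−) in 3 rows.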

How the data were processed

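The authors deposited, without normalization, a median intensity per spot and dye and a local background intensity, merged from 3 scanner gains, and a table of log2 ratios with 1 value per gene and array. Set against the intensities, the deposited log2 values were Cy3 over Cy5 once the mean of 4553 blank spots trimmed by 5% at each end had been taken off, without spots under 2 SD of it and minus the array median. The same steps were recalculated and differed by at most 2.7e-05. The subtracted medians were 0.17 and 0.38. Genome build and scanner software are not given in the sources used here. The few arrays limit the precision.

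Alternatives were other background corrections, loess, normexp with an offset of 50, other centering, 50 added to each signal, exchanged HS (−) readings and Aquantile. Centering within blocks was added after seeing the data. The steps were also run on simulated signals, with the recorded background values left unchanged. That run cannot decide which background correction suits Nppb. The genes, lists, limits and motifs were chosen with earlier results of these data known. Of the 5 genes nearest to each in both ratios, the nearest is given, and for Nppa also ENSRNOG00000031230, as IDs had no name. Lists of promoter factors, the fetal programme and gene neighbours had 0 of 10, 1 of 5 and 0 of 4 genes with an ID. Python 3.11.15, numpy 2.4.6, pandas 2.3.3, R 4.3.3 and limma 3.58.1 were used.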

Additional observations from a re-analysis of the deposited data

How the results depend on the processing

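Values were compared on the log2 scale with the SD of the repeated HS (−) readings; 34 of 62 recalculated ratios of both genes, the deposited table left aside, moved by less, 25 by more and 3 changed direction. The causes were not tested unless stated. Nppa kept its direction in every alternative run, and so did Nppb for HS (−)/NS (−) and HS (ch+)/NS (−). No paired analysis was possible because each group was 1 pool. The separate scans are not in the files used here, so that alternative was not run.

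With subtraction of the background value beside the spot, Nppb had ratios of 1.23 for HS (−)/NS (−), 1.49 for HS (ch+)/HS (−), a reversal, and 1.84 for HS (ch+)/NS (−). With normexp and loess, which also use that background value, these were 1.42, 1.19, a reversal, and 1.69. Nppa then had 0.176 for HS (ch+)/HS (−) and 7.60 for HS (ch+)/NS (−). Without background subtraction, Nppa had 54.6 and 0.176 and Nppb 2.44 and 0.656 on arrays 1 and 2; this moved the median log2 ratios of all 4127 genes by 0.32 and -0.27. Loess gave 47.5 for HS (−)/NS (−) and 10.7 for HS (ch+)/NS (−) in Nppa and 2.06 for HS (−)/NS (−) in Nppb, which places Nppb past the 2-fold limit. Without centering, which by construction moves every gene alike, Nppa had 37.6, 0.286 and 10.8, and Nppb had 1.63, 1.07, a reversal, and 1.74. With 50 added to each signal, Nppa had 37.7 and 0.261, and Nppb 0.971 for HS (ch+)/HS (−). With the HS (−) readings exchanged between arrays, Nppa had 35.9, 0.190 and 6.80, and Nppb 1.26 for HS (ch+)/NS (−).

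Genes with HS (−)/NS (−) over 2 numbered 548 without a signal minimum and 90 with 100 in all 4 channels, instead of 172. Those with HS (ch+)/HS (−) under 0.714 numbered 1038, 122 and, without background subtraction, 631, instead of 190. Those with both numbered 294, 58 and 185 in these settings, instead of 113.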
